A study of Mus musculus with 12 samples.

Results

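Ccbe1 and Tdrkh are 2 of the 16288 genes listed in at least 1 of 12 RNA-seq libraries of C2C12 cells, an immortalized mouse myoblast line that fuses into myotubes when serum is withdrawn. They were chosen because both had large, well-counted falls in proliferating cells given PFI-3, a small molecule inhibitor of the bromodomains in BRG1 and BRM, the ATPases of mammalian SWI/SNF chromatin remodellers. The values of proliferating cells therefore describe the choice and are given without a test of these 2 genes. The tests of the 2 genes below compare differentiating cells, although the fit takes its spread from all 12 libraries. The data show less than a loss: Ccbe1 kept 17.6% and Tdrkh 26.5% of the DMSO level in proliferating cells, and every library held reads of both genes. The decrease was not limited to proliferating cells either, since both genes were also lower with PFI-3 at both times of differentiation.

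Each of the 6 combinations of stage and treatment has 2 libraries. Proliferating cells (GM) were kept in medium with 10% fetal bovine serum and received DMSO, the solvent, or 50 uM PFI-3 for 12 hours before harvest. Differentiating cells had the same 12 hours of DMSO or 50 uM PFI-3, were then moved at high confluence to medium with 2% horse serum and 2 ug/ml insulin with the agent renewed every 24 hours, and were taken after 24 hours (DM 24h) or 48 hours (DM 48h). The labels describe the 2 libraries of a group, lettered A and B, as biological duplicates. All come from 1 cell line and 1 dose, with no inactive control compound among the samples used here.

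Ccbe1 encodes a secreted protein with collagen repeats and a calcium-binding EGF domain. It is known from the growth of lymphatic vessels, where it helps the protease ADAMTS3 to cut the growth factor VEGF-C into the form that activates its receptor, the product of Flt4. Tdrkh encodes a Tudor and KH domain protein of the mitochondrial outer membrane. In germ cells it binds PIWI proteins through their methylated arginines and is needed for the trimming of piRNAs, small RNAs that silence transposons, by the nuclease PNLDC1.

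In the GRCm38.p6 RefSeq annotation, Tdrkh (NCBI Gene 72634) lies on the plus strand at chr3:94413243-94434854, spans 21612 bases and has 5 curated transcripts. The Tdrkh promoter is shown because the gene moved with the treatment in each stage. RefSeq's 249 bases before its start, chr3:94412994-94413242 on the plus strand, are printed 5′ to 3′ with matches to the CCAAT box in capitals:
Tdrkh promoter: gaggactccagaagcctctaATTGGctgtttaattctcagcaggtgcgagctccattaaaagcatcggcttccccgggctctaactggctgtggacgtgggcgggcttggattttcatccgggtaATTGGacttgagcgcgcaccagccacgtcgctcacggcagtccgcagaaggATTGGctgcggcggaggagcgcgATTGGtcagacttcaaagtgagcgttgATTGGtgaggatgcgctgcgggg

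Searched on both strands, CCAAT had 5 matches in this window, all as its reverse complement ATTGG, starting 229, 124, 73, 50 and 23 bases before the gene start. At least 1 match stood in 33.8% of 32851 mouse promoters of this length, and 5 or more in 0.213% (70 promoters). The E-box CANNTG, the kind of site that myogenic factors such as MyoD bind, had 1 match, against 66.1% of promoters with at least 1. GGGCGG, the core of a GC box, also had 1 match, against 32.6%. These are matches of letters, and binding was not measured.

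Total counts were 12576374 to 13658352 per library, and 12545 genes were tested. Within the 2 GM groups, the libraries lay further apart than within the DM groups: over genes, the log2 ratio between library B and library A had an SD of 0.367 (DMSO) and 0.333 (PFI-3), against 0.144 to 0.168. Markers of muscle cells were present, but 5 of 6 fibroblast markers also had enough counts to be tested, and their levels are given below. All 7 myoblast markers, among them Myod1, were tested, and the summed level of 6 genes of muscle differentiation (Myog, Mymk, Myh3, Ckm, Acta1 and Tnnt3) was 5.83 to 11.5 CPM (counts scaled to the library total) in GM and 16400 CPM in both DMSO libraries at DM 48h. Markers of the cells in which the 2 genes are best known were mixed. Of 8 endothelial markers, Erg was not listed, Pecam1 had at most 2 counts, Lyve1 at most 3, Flt4 at most 5 and Cdh5 at most 15, while Vwf reached 50, Prox1 165 and Pdpn 6656. The 8 summed to 364 to 398 CPM with DMSO and 393 to 475 with PFI-3 in GM, to 183 to 196 and 279 to 281 at DM 24h, and to 176 to 188 and 244 to 250 at DM 48h, most of it Pdpn, which other cell types also express. With PFI-3, Pdpn was called higher and Prox1 lower at both DM times, and Vwf lower at DM 48h. Of 7 germ cell markers, Dazl, Dppa3 and Stra8 were not listed, Ddx4 had at most 1 count, Piwil2 at most 6, Sycp3 at most 8 and Tex14 at most 16. Their sum was 0.291 to 1.96 CPM over all libraries, with Tex14 called lower at DM 48h (edgeR adjusted p = 0.0204). The part of these markers in the results below was not tested.

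Ccbe1 (NCBI Gene 320924) lies on the minus strand at chr18:66056855-66291838 of the same annotation, spans 234984 bases and has 1 curated transcript. It was highest in proliferating DMSO cells and lower with PFI-3 at each stage. Its counts in GM were 543 (A) and 321 (B) with DMSO and 90 and 72 with PFI-3. After 24 hours of differentiation the DMSO libraries had 81 and 89 counts and the PFI-3 libraries 13 and 19. After 48 hours the DMSO libraries had 99 and 121 and the PFI-3 libraries 31 and 30. In every stage both PFI-3 libraries lay below both DMSO libraries, although the 2 GM DMSO libraries were far apart from each other.

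As CPM, scaled by the trimmed mean of M-values (TMM), the Ccbe1 level was 33.1 ± 13.3 (SD, n = 2) in GM DMSO and 5.84 ± 1.0 (SD, n = 2) in GM PFI-3. DM 24h had 6.65 ± 0.331 (DMSO) and 1.22 ± 0.325 (PFI-3), and DM 48h 8.97 ± 1.31 and 2.39 ± 0.0609 (SD, n = 2 each). The groups thus ran, from high to low, GM DMSO, DM 48h DMSO, DM 24h DMSO, GM PFI-3, DM 48h PFI-3 and DM 24h PFI-3. Of neighbours in that order, only DM 24h DMSO and GM PFI-3 had libraries that overlapped, so proliferating cells given PFI-3 stood at about the level of DMSO cells after 24 hours of differentiation. Differentiation itself went with less Ccbe1: relative to GM, the DMSO level was 20.1% after 24 hours and 27.1% after 48 hours, which is a description, since it uses the GM libraries.

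**Figure D1:**
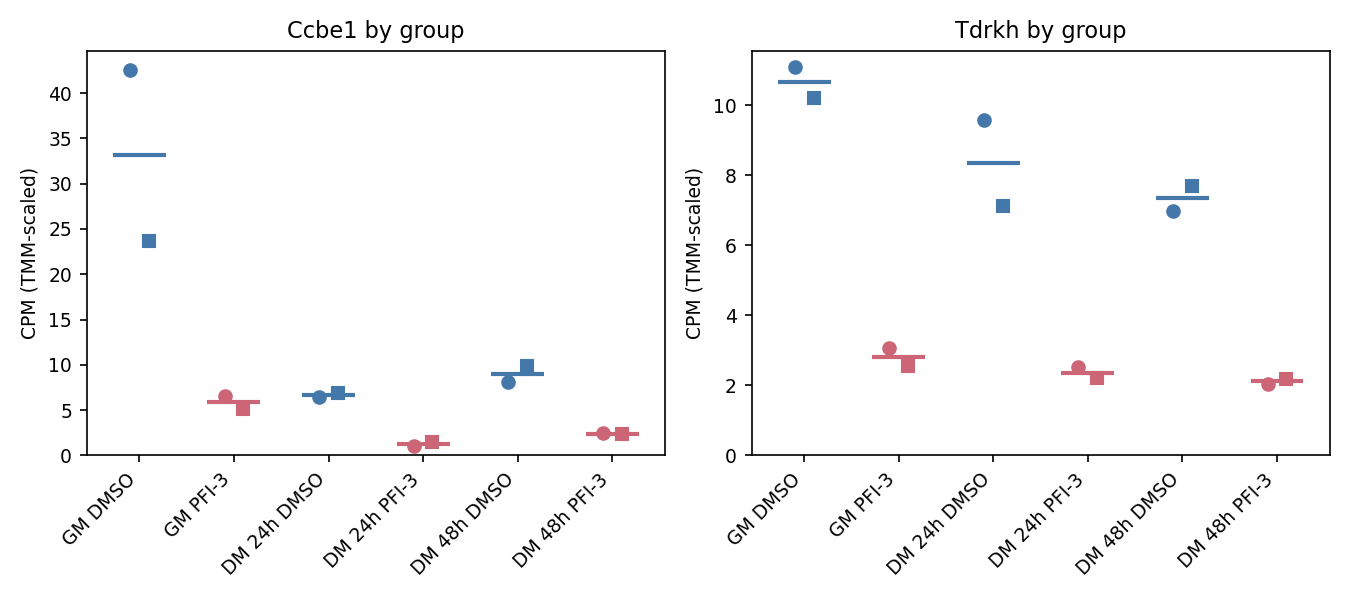
Levels of Ccbe1 and Tdrkh (CPM, TMM-scaled, linear axes from 0) in the 6 groups. Circles are A libraries, squares B libraries, blue DMSO and red PFI-3, and lines mark the group means. Ccbe1 is highest in GM DMSO, where A (42.6) and B (23.7) are far apart, while every PFI-3 library of Tdrkh (2.04 to 3.06) lies below every DMSO library (6.99 to 11.1).

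Tdrkh also had its highest level in GM DMSO, with smaller differences between stages than Ccbe1. Its counts in GM were 141 and 138 with DMSO and 42 and 36 with PFI-3. The DM 24h libraries had 121 and 92 (DMSO) and 33 and 29 (PFI-3), and the DM 48h libraries 86 and 94 (DMSO) and 26 and 28 (PFI-3). All 6 PFI-3 libraries lay below all 6 DMSO libraries, whatever the stage.

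The Tdrkh level was 10.6 ± 0.612 CPM (SD, n = 2) in GM DMSO and 2.81 ± 0.347 in GM PFI-3. DM 24h had 8.36 ± 1.75 (DMSO) and 2.36 ± 0.212 (PFI-3), and DM 48h 7.34 ± 0.492 and 2.11 ± 0.106 (SD, n = 2 each). That is also the order from high to low within each treatment, and DMSO at DM 24h and DM 48h were the only neighbours with overlapping libraries. The level with PFI-3 was 26.5%, 28.3% and 28.8% of that with DMSO, taking the stages in order. The length that the deposited tables give Tdrkh varied between libraries, from 1671 to 2213 bases, and per length (FPKM, fragments scaled to transcript length and library total) the same shares were 24.0%, 31.0% and 31.3%. By stage, the mean Tdrkh FPKM with DMSO was 6.04, 4.85 and 3.43, a steeper decrease than that of CPM.

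The tests asked whether PFI-3 changed the 2 genes in the differentiating libraries, which the rule that chose them does not use, although earlier results of all libraries were known. A gene was called at a Benjamini-Hochberg adjusted p under 0.05 in edgeR's quasi-likelihood test over all 12545 genes. At DM 24h both genes were called lower, against 11.4% of all genes. Ccbe1 fell by 2.44 on the log2 scale (SE 0.38, 95% interval -3.27 to -1.61, adjusted p = 0.000828) and Tdrkh fell by 1.82 (SE 0.21, 95% interval -2.27 to -1.36, adjusted p = 8.41e-05). By size, these were the 63rd and 156th of the 12545 log2 fold changes counted from the most negative.

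At DM 48h both genes were again called lower, against 14% of all genes. Ccbe1 fell by 1.91 (SE 0.33, 95% interval -2.62 to -1.20, adjusted p = 0.00102) and Tdrkh fell by 1.79 (SE 0.22, 95% interval -2.27 to -1.32, adjusted p = 8.37e-05). Of all genes tested, 682 (5.44%) were called lower at both times. The 6 genes of muscle differentiation moved with the treatment at these stages too: all 6 were called lower at both times, and their summed level was 973 to 981 CPM with PFI-3 against 2360 to 2370 CPM with DMSO at DM 24h. At DM 48h it was 10800 to 11000 against 16400 CPM. In GM they summed to 5.83 to 11.5 CPM with DMSO and 8.8 to 10.2 with PFI-3, and none was called by edgeR, DESeq2 or limma (1 higher at an unadjusted p under 0.05 in edgeR). Of the 7 myoblast markers, 4 were called lower in GM (Cdh15 at -1.39, Itga7 at -0.50, Des at -0.47 and Vim at -0.39), where 6.15% of all genes were. At DM 24h 3 were called lower (Cdh15, Pax7 and Itga7), against 11.4% of all genes, and at DM 48h 2 (Cdh15 and Pax7), against 14%. None was called higher by edgeR, also at an unadjusted p under 0.05, or by DESeq2, and 1 was by limma at DM 48h. The summed level of the 7 myoblast markers with PFI-3 and with DMSO was 6080 to 6500 against 7680 to 8940 CPM in GM. Most of that GM sum was Vim, with means of 5530 and 7230 CPM. The sum was 4870 to 4910 against 5460 to 5470 CPM for DM 24h, and 6140 to 6260 against 6530 to 6660 CPM for DM 48h. Of 6 fibroblast markers, 5 were tested, and Col1a1 was called lower at each stage (-1.51, -2.67 and -2.20), while Pdgfra and Twist2 were called higher at both DM times and Dpt lower at DM 48h. The fibroblast markers summed to 490 to 725 CPM with PFI-3 against 673 to 846 with DMSO in GM. For DM 24h they summed to 3370 to 3430 against 3610 to 3730, and for DM 48h to 3150 to 3350 against 4060 to 4280. Most of each sum was Col3a1, which was not called at any stage. The part of these marker changes in the results for Ccbe1 and Tdrkh was not tested. In bulk RNA, fewer cells that express a gene and less of its RNA per cell cannot be told apart.

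**Figure D2:**
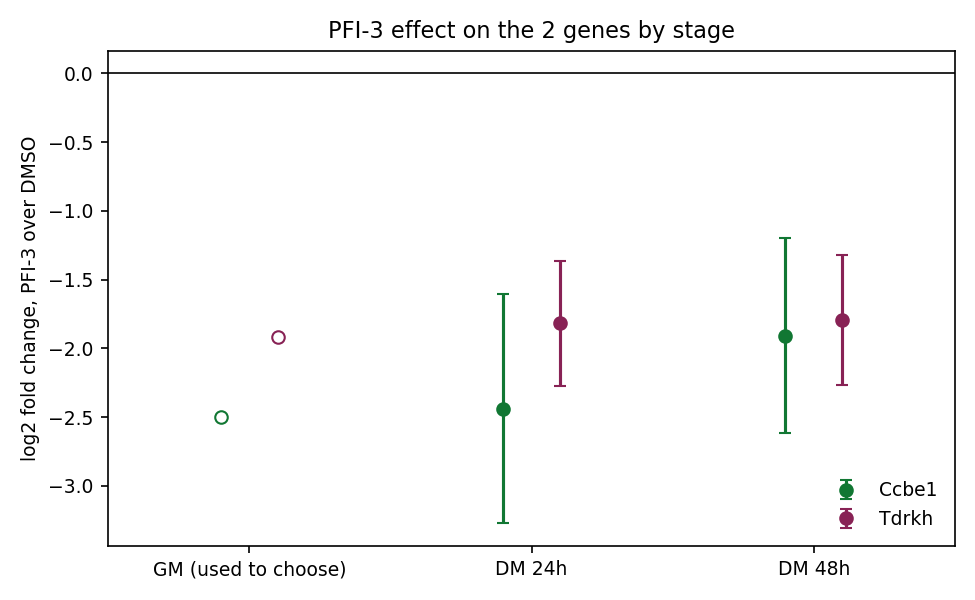
Log2 fold change of PFI-3 over DMSO for Ccbe1 and Tdrkh at the 3 stages. Bars at the DM times are 95% intervals of the edgeR fit, and the open GM points have no bar. All 6 values lie between -2.50 and -1.79; those in GM chose the genes and carry no test.

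The difference between the 2 times did not pass the test for either gene. The log2 effect of PFI-3 at DM 48h minus that at DM 24h was 0.53 for Ccbe1 (SE 0.53, 95% interval -0.63 to 1.70, edgeR adjusted p = 0.571). For Tdrkh it was 0.02 (SE 0.32, 95% interval -0.67 to 0.72, adjusted p = 0.974). Of all genes, 12.1% were called in this comparison (7.12% with a higher and 4.97% with a lower value at DM 48h). The intervals leave room for a sizeable change in either direction, so they do not show that the effect was the same.

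Nor did either gene pass for the step from 24 to 48 hours, in which 48.1% of all genes were called with DMSO and 27.3% with PFI-3. Ccbe1 differed by 0.43 on the log2 scale with DMSO (SE 0.28, 95% interval -0.17 to 1.04, edgeR adjusted p = 0.224) and by 0.96 with PFI-3 (SE 0.45, 95% interval -0.03 to 1.95, adjusted p = 0.14). Its 4 libraries at DM 48h nevertheless all lay above the DM 24h libraries of the same treatment, and both differences were called when only those libraries were fitted (adjusted p = 0.0192 and 0.0134). Tdrkh differed by -0.19 with DMSO (SE 0.18, 95% interval -0.58 to 0.20, adjusted p = 0.423) and by -0.16 with PFI-3 (SE 0.25, 95% interval -0.71 to 0.39, adjusted p = 0.695). With DMSO its sign turned to 0.042 without the A library of DM 24h, and limma on FPKM called the decrease (-0.40, adjusted p = 0.01).

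Because Ccbe1 differed more between stages than Tdrkh, their balance shifted. Per length, the ratio of Tdrkh to Ccbe1 FPKM was 1.08 in GM DMSO and 1.36 in GM PFI-3. It was 4.15 and 6.84 in the DMSO and PFI-3 groups of DM 24h and 2.26 and 2.53 in those of DM 48h. The mean FPKM of Ccbe1 went from 5.59 in GM DMSO to 0.22 at DM 24h with PFI-3, and that of Tdrkh from 6.04 to 1.5, so the genes started at about the same level per length. Over the 12 libraries their log2 CPM had a Pearson r of 0.842, given as a description, since the libraries share stages and treatments.

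Among the 746 genes called lower in GM with a mean of at least 5 CPM over all libraries, Ccbe1 had the 6th and Tdrkh the 9th most negative log2 fold change. The mean of Tdrkh, 5.6 CPM, was just above that limit. Without these 2 conditions they were the 45th and 88th of the 12545 log2 fold changes in GM. For comparison, 6.15% of all genes were called lower there, and the 2 genes were picked from among them. By stage, lower calls made up 53.0%, 48.3% and 51.1% of all calls, and 24.7%, 38.0% and 34.7% with limma on log2(FPKM + 1), whose values are scaled differently. The genes on either side in the ranking were Pdlim3 (-2.51) and Mylk4 (-2.18) around Ccbe1 and Cnn1 (-1.98) and Pdgfb (-1.88) around Tdrkh. They rested on fewer or more uneven reads in GM. Pdlim3, which encodes a muscle Z-disc protein, had 5 and 7 counts with DMSO and 2 and 0 with PFI-3. Mylk4, a myosin light chain kinase gene, had 11 and 7 with DMSO, and Pdgfb, a growth factor gene, 24 and 36. Cnn1, which encodes the smooth muscle protein calponin, had 443 and 136 with DMSO and 99 and 58 with PFI-3, and without the DMSO library A its GM difference was -0.83 and not called (edgeR adjusted p = 0.159). In the DM libraries, Cnn1 was not called (-2.05, edgeR adjusted p = 0.12 for DM 24h, and -0.66, adjusted p = 0.675 for DM 48h), while the other 3 were called lower at both times. Of the 746 genes, 158 were called lower at both DM times, and 68 of all genes tested had a log2 fold change under -1 in all 3 stages.

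The genes whose pattern over the 12 libraries was most like that of Ccbe1, by Pearson r of log2 CPM among 10366 genes, were Mical2 (0.97), Mfap3l (0.954), Psma6 (0.952), Tnc (0.952) and Fndc4 (0.952). Mical2 encodes an actin-oxidizing enzyme, Psma6 a proteasome subunit and Tnc the matrix protein tenascin-C. Only Tnc of these 5 moved over a range near that of Ccbe1: its log2 fold change with PFI-3 was -1.65, -2.01 and -1.94 by stage, and its mean CPM at DM 24h with PFI-3 was 9.99% of that in GM DMSO, against 3.68% for Ccbe1. Psma6 stayed at 69.0% or more in all groups. Since likeness to the member chose these genes, their fold changes are given without a test.

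Most like Tdrkh were Mief1 (0.964), Ing1 (0.941), Chml (0.926), Prss23 (0.916) and 5730559C18Rik (0.914). Mief1 encodes a mitochondrial outer membrane protein that takes part in fission, and Ing1 a reader of histone methylation. None of the 5 had a log2 fold change with PFI-3 beyond -1.05 (Prss23, DM 48h), so Tdrkh had the larger effect at each stage. Mief1, the closest in pattern, stayed between 82.0% and 97.2% of its GM DMSO level in the other groups, against 19.9% to 78.7% for Tdrkh.

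**Figure D3:**
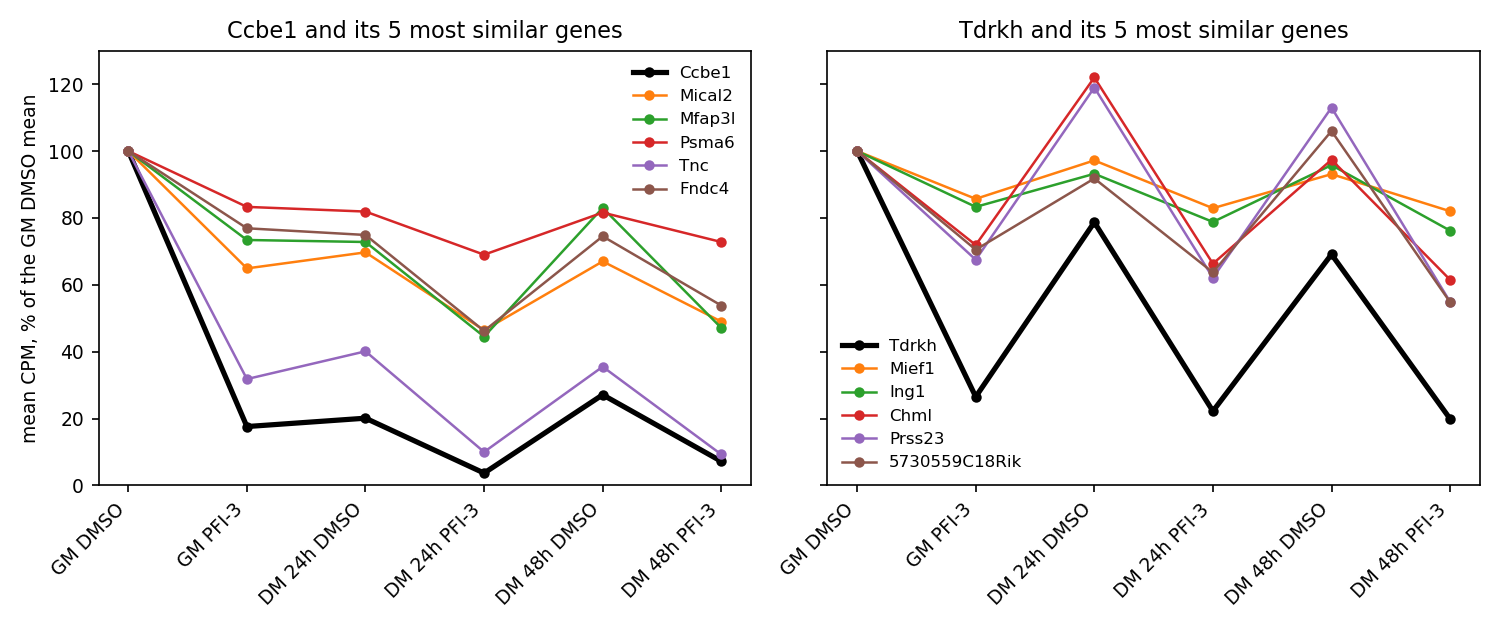
Mean CPM of each group as a percentage of the gene's own GM DMSO mean, for Ccbe1 and Tdrkh (black) and the 5 genes most correlated with each. Ccbe1 drops to 3.68% at DM 24h with PFI-3 and Tnc comes nearest at 9.99%; the genes beside Tdrkh follow the same zigzag with treatment but stay at 54.8% or more.

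The partners of Ccbe1 in lymphatic growth changed less than Ccbe1 and not in 1 direction. Of 29 genes of VEGF-C processing and lymphatic growth, 23 were tested, and 5 were called lower and 0 higher in GM, where 6.15% and 5.46% of all genes were. At an unadjusted p under 0.05 edgeR had 2 higher, and after adjustment DESeq2 had 0 and limma 1. Those 5 were Vegfc, the substrate (-0.55, edgeR adjusted p = 0.0251), Adamts14, a protease gene close to Adamts3 (-0.91, adjusted p = 0.0156), Pgf (-0.58), the convertase gene Furin (-0.33) and Gata2 (-0.34). These 5 calls were lost when the 4 GM libraries were fitted alone. In that fit 23 of the 27 GM calls of genes named here were lost. That total leaves out Ccbe1, Tdrkh and genes named only as cell type markers. The GM level of Vegfc was 22.4 ± 2.72 CPM in DMSO cells against 15.3 ± 0.0805 in PFI-3 cells (SD, n = 2). Its later differences (-0.43, adjusted p = 0.0595, and -0.22, adjusted p = 0.397) were not called. Adamts3, the protease itself, was near 1 CPM or below and was not called at any stage, and the receptor gene Flt4 had at most 5 counts and was not tested.

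During differentiation several of these genes rose instead. At DM 24h 4 were called higher (Vegfd, Nrp2, Foxc2 and Pcsk7) and 3 lower (Prox1, Adamts2 and Efnb2), against 12.2% and 11.4% of all genes. At DM 48h 7 were called higher, against 13.4%, and 2 lower (Vegfa and Prox1), against 14%. Nrp2, which encodes a co-receptor of VEGF-C, rose from 166 ± 1.32 to 372 ± 4.25 CPM at DM 48h (SD, n = 2; log2 fold change 1.16, adjusted p = 2.24e-05). Vegfd, the closest relative of Vegfc, rose by 1.47 (adjusted p = 0.00123) and Svep1, another extracellular protein of lymphatic growth, by 1.16 (adjusted p = 0.00572). Vegfa fell by 0.84 (adjusted p = 0.00545). The list's median log2 fold change was -0.141, -0.108 and 0.234 by stage, against -0.01, -0.001 and 0.001 for all genes.

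Other secreted proteins with EGF domains, which resemble Ccbe1 in make-up, moved both ways. Of 26 genes 20 were tested. In GM 3 were called higher (Fbln7, Fbln5 and Ltbp4) and 3 lower (Nid2, Ltbp2 and Efemp2), where 5.46% and 6.15% of all genes were. At DM 24h 5 were higher (Fbln7, Efemp1, Fbln5, Nid1 and Ltbp1) and 4 lower (Fbln2, Npnt, Fbn1 and Nid2), against 12.2% and 11.4% of all genes. At DM 48h 8 were higher and 6 lower, against 13.4% and 14%. Fbln7, a fibulin gene, went the opposite way from Ccbe1 and rose at each stage, from 0.565 ± 0.245 to 2.26 ± 0.425 CPM in GM and from 3.3 ± 0.159 to 25.1 ± 0.833 CPM at DM 48h (SD, n = 2; log2 fold changes 1.97, 1.64 and 2.92 by stage, edgeR adjusted p = 0.0022, 2.31e-05 and 4.87e-07). Nid2, which encodes a basement membrane nidogen, fell by 1.03 in GM and rose by 0.43 at DM 48h (adjusted p = 1.36e-05 and 0.000788). Egfl7, an angiogenesis gene with group means of 1.49 to 3.3 CPM, was called lower at DM 48h alone of the stages (-1.15, adjusted p = 0.00832). The medians were -0.046, 0.113 and 0.025.

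The piRNA partners of Tdrkh were mostly silent in these cells. Of 27 genes of the piRNA pathway, 18 were listed in any library and 4 had enough counts to be tested (Mybl1, Tdrd7, Tdrd9 and Parn). Piwil1 was not listed, Piwil2 had at most 6 counts and the trimming nuclease gene Pnldc1 at most 6. Mybl1, which encodes the transcription factor A-MYB, was the only gene of the list that was called, in GM and at DM 48h (1 of 4 tested, against 5.46% and 13.4% of all genes called higher): it rose from 5.91 ± 0.61 to 12.9 ± 0.523 CPM at DM 48h (SD, n = 2; log2 fold change 1.12, edgeR adjusted p = 0.00018). Its call in GM (0.41, adjusted p = 0.0474) was lost without any 1 of the 4 GM libraries. The list's medians were 0.05, -0.143 and -0.062.

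Tudor domain and arginine methylation genes active in somatic cells were all measured, and none fell as far as Tdrkh. All 26 were tested. In GM 1 was called higher (Kdm4b) and 3 lower, the methyltransferase genes Prmt1, Prmt5 and Carm1, against 5.46% and 6.15% of all genes. At DM 24h 2 were higher (Kdm4b and Phf20) and 5 lower (Lbr, Wdr77, Prmt5, Prmt1 and Carm1), against 12.2% and 11.4%. At DM 48h 3 were higher (Uhrf1, Phf19 and Trp53bp1), against 13.4%, and 0 lower, against 14% (edgeR; 1 at an unadjusted p under 0.05, and 0 by DESeq2 and limma). Prmt5, which encodes the enzyme that places symmetric dimethylarginine, differed by -0.34, -0.37 and -0.07 by stage (adjusted p = 0.0251, 0.0113 and 0.583). Akap1, whose protein has the same pairing of KH and Tudor domains on mitochondria as that of Tdrkh, was not called at any stage (-0.14, 0.03 and -0.03; adjusted p = 0.305, 0.853 and 0.843). Uhrf1, which encodes a factor for maintaining DNA methylation, rose from 47.1 ± 1.81 to 117 ± 3.48 CPM at DM 48h (SD, n = 2; log2 fold change 1.31, adjusted p = 2.35e-06). The medians were -0.14, -0.068 and 0.037. Some names that complete these short lists (such as Pgf, Ltbp4 and Prmt1) fall outside the rule for named genes and were added after their values were seen.

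**Figure D4:**
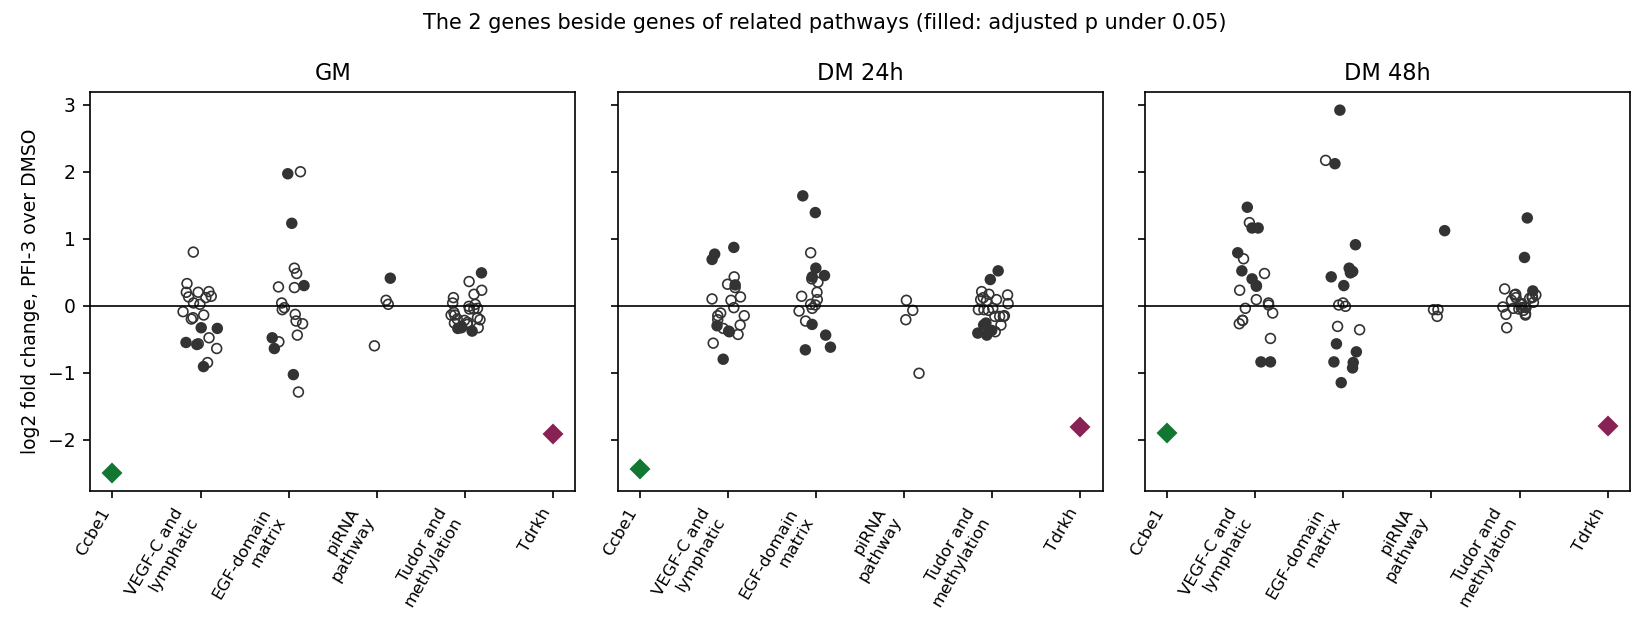
Log2 fold change of PFI-3 over DMSO at each stage for Ccbe1, Tdrkh (diamonds) and the tested genes of the 4 lists (circles; filled where the adjusted p is under 0.05). No tested gene of the lists lies as low as Ccbe1 or Tdrkh in any panel, and Fbln7 (2.92) is the highest filled point at DM 48h.

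In the genome, no tested gene around Tdrkh had a log2 fold change as low. Oaz3 overlaps the end of Tdrkh by 1468 bases on the opposite strand, but it had at most 2 counts in any library. Mrpl9, a mitochondrial ribosome gene 8300 bases beyond, differed by -0.22, 0.02 and -0.17 by stage and was not called (edgeR adjusted p = 0.143, 0.914 and 0.192). Lingo4 and Riiad1 had at most 4 and 1 counts. The non-coding RNA gene 1700040D17Rik, on the opposite strand, starts 288 bases from the Tdrkh start and was not listed. The promoter sequence printed for Tdrkh lies between these starts. Of 8 tested genes of the 44 annotated within 500 kb, Selenbp1 was called higher at DM 24h (2.31, adjusted p = 0.000825) and Psmb4 lower at DM 48h (-0.25, adjusted p = 0.0199). Of all genes, 12.2% were called higher at DM 24h and 14% lower at DM 48h. Selenbp1 and Psmb4 were singled out after their values were seen.

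Next to Ccbe1 the picture was mixed. Lman1, a cargo receptor gene 54220 bases away, differed by -0.08, -0.17 and 0.15 and was not called (edgeR adjusted p = 0.531, 0.104 and 0.153). Pmaip1, which encodes the cell death protein NOXA and lies 166766 bases on the other side, fell from 15.2 ± 1.92 to 4.3 ± 0.37 CPM at DM 24h (SD, n = 2; log2 fold change -1.82, adjusted p = 2.58e-05). At DM 48h it fell from 81.4 ± 4.43 to 17.2 ± 0.236 CPM (log2 fold change -2.24, adjusted p = 7.46e-07), and in GM it differed by -0.58 (adjusted p = 0.0845). Its DMSO level in GM was 6.16 CPM, so with DMSO Pmaip1 was higher at both DM times than in GM, while Ccbe1 was lower. With PFI-3, Pmaip1 was at 4.1 ± 0.162 CPM in GM (SD, n = 2), about its level at DM 24h. Mir694 inside Ccbe1, Cplx4 and the pseudogene Gm20294 were not listed. Of 4 tested genes of the 20 annotated within 500 kb, Pmaip1 at both DM times and Zfp532 at DM 48h (-0.40, adjusted p = 0.0164, not called by DESeq2 or limma) were lower. Of all genes, 11.4% were called lower at DM 24h and 14% at DM 48h.

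**Figure D5:**
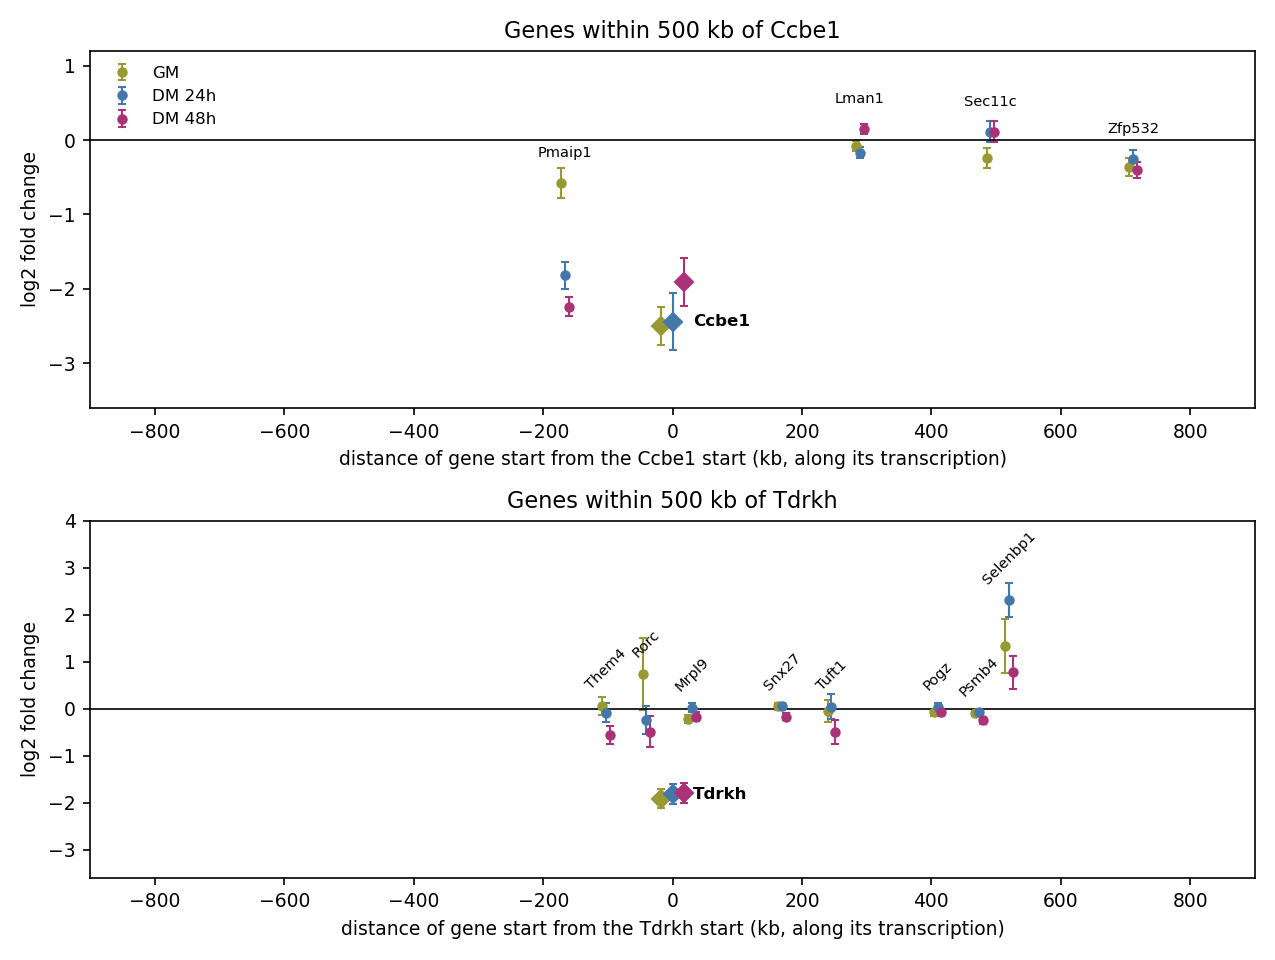
Log2 fold change (± SE) of PFI-3 over DMSO at the 3 stages for Ccbe1 and Tdrkh (diamonds) and the tested genes that reach within 500 kb of them, by the distance between gene starts, which can exceed 500 kb for long genes. Pmaip1 (-1.82 and -2.24 at the DM times) lies below Ccbe1 at DM 48h but not at DM 24h, and no gene near Tdrkh lies as low as Tdrkh.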

How the data were processed

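RNA was measured by RNA-seq in 12 libraries of C2C12 cells. The submitters' processing notes name HISAT, StringTie, Cufflinks, Bowtie, RSEM and DESeq2 with no role or version, and the build mm10. The authors deposited for each library a table of genes with an expected count, an FPKM and a gene length. 93.3% to 93.7% of the expected counts were whole (within 0.005), they were rounded, and a gene missing from a table was set to 0, so its true value there is not known. Whether counting used strand is not given in the sources used here.

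Counts were fitted with edgeR 4.0.16 (quasi-likelihood, TMM, filterByExpr, R 4.3.3) in 1 model of 6 groups, with Benjamini-Hochberg adjustment over 12545 genes; SEs are the fold change over the root of F. Correlations used log2 CPM with a prior count of 2. On simulated data for DM 24h (12545 genes, 200 changed 2-fold) edgeR recovered 88.5%, with 4.84% of calls false. The simulation gave each gene the same spread in all groups and changed only better-counted genes. It therefore does not cover the wider spread of GM. Alternatives were DESeq2 1.42.0, limma 3.58.1 on log2(FPKM + 1 or 0.1), other scaling and filters, fewer libraries, a replicate block and leaving out each library. The members and lists were chosen with earlier results of these data known. Named genes were the members, the 5 most correlated genes of each, 2 neighbours in rank and on each genome side, up to 6 called genes of each list by size, and direct partners; exceptions are stated. The gene names and coordinates are RefSeq's for GRCm38.p6, the build that mm10 denotes. No sequence of the Ccbe1 promoter is reported here. P-values measure the spread between libraries of the same group, as 1 value per gene pooled over the 6 groups and moderated over genes. Since libraries lay further apart in GM than in DM, that value can be too small for GM and too large for DM.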

Additional observations from a re-analysis of the deposited data

Results flagged for a closer look

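The difference between the PFI-3 effects at the 2 DM times was not called for Ccbe1 or Tdrkh. It was called for 14 other genes named above, and for 12.1% of all genes. Genes of the lists were named for large effects at any stage, which this test also uses. The 14 are therefore a description and give no contrast with Ccbe1 and Tdrkh. Genes named only as cell type markers were left out of this list, whether or not their effects differed. Each value is the log2 effect at DM 48h minus that at DM 24h, from edgeR's interaction test. It was positive for Pdgfb (2.01, adjusted p = 0.00289), Uhrf1 (1.47), Fbln7 (1.28), Mybl1 (1.2), Pdlim3 (1.2), Phf19 (1.12), Efnb2 (0.78), Nid2 (0.71), Lbr (0.66) and Mylk4 (0.52). Pdgfb went from -3.38 to -1.37 and Pdlim3 from -1.73 to -0.54, so the genes beside Ccbe1 and Tdrkh in the GM ranking were less reduced at DM 48h. It was negative for Egfl7 (-1.55, adjusted p = 0.0244), Kdm4b (-0.85), Ltbp2 (-0.85) and Ltbp4 (-0.62). Adjusted p-values of all 14 lay between 4.24e-05 (Uhrf1) and 0.031 (Mylk4).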

How the results depend on the processing

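Both genes were lower and called at both DM times under all 13 alternatives of each result, with adjusted p of 1.13e-10 to 0.0167 for Ccbe1 and 2.1e-09 to 0.00281 for Tdrkh at DM 24h, and 3.31e-10 to 0.0149 and 9.31e-09 to 0.0025 at DM 48h. In GM, limma on log2(FPKM + 1) gave -1.64 for Ccbe1 and -1.53 for Tdrkh. Leaving out 1 library gave -2.86 to -2.02 for Ccbe1 and -2.04 to -1.79 for Tdrkh in GM, -2.74 to -2.19 and -2.01 to -1.59 at DM 24h, and -2.05 to -1.75 and -1.86 to -1.73 at DM 48h; the remaining library of a group is then assumed to vary like the other groups.

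For DM 48h against DM 24h, leaving out 1 library gave 0.28 to 0.57 (Ccbe1) and -0.38 to 0.042 (Tdrkh) with DMSO, and 0.71 to 1.26 and -0.25 to -0.07 with PFI-3. Ccbe1 was called with only the libraries compared (0.43 with DMSO, 1.00 with PFI-3) and with only the 8 DM libraries, added after seeing the data (0.43, adjusted p = 0.0253, and 0.96, adjusted p = 0.0117). Tdrkh with DMSO was called by limma at both pseudocounts (-0.40 and -0.49). For the effect at DM 48h minus that at DM 24h, the ranges were 0.29 to 0.83 (Ccbe1) and -0.20 to 0.22 (Tdrkh), and Tdrkh turned negative without DM 24h DMSO A (-0.20), DM 48h DMSO A (-0.048), DM 24h PFI-3 B (-0.06) and DM 48h PFI-3 B (-0.026); the cause was not tested.

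Genes called, with all 12 libraries, with only the libraries compared, with the 8 DM libraries, and without 1 library, were 1456, 32 and 1190 to 2734 in GM (no DM fit; 2734 without GM DMSO B), 2966, 5583, 5525 and 1320 to 1469 at DM 24h, and 3438, 5688, 5833 and 1937 to 2073 at DM 48h. They were 3429, 5674, 5880 and 1947 to 2089 for the stages with PFI-3 and 1517, 4154, 4154 and 790 to 865 for the difference of effects, and without 1 library 4497 to 4566, against 6035, for the stages with DMSO.

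Of the calls of other named genes, 25 of 27 in GM, 21 of 36 at DM 24h and 12 of 39 at DM 48h were lost under at least 1 alternative, and none reversed. Calls of genes named only as cell type markers are not in these totals. Same-lettered libraries deviated together in GM (correlation 0.488) but not at DM 24h (0.0177) or DM 48h (0.037). The letters were not used as pairs at any stage, so the fit leaves out a pairing in GM. The replicate block was 1 term for the letter, shared by all stages, so it cannot follow a shift in GM alone. With that block 1489, 3040 and 3452 genes were called by stage, and Ccbe1 and Tdrkh were at -2.44 and -1.81 at DM 24h.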
